A study of Mus musculus with 11 samples.

Results

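The mitochondrial chromosome of the mouse carries 37 genes, and all 37 are rows of the deposited table of 54418 genes. They were taken as every gene whose GENCODE symbol on GRCm38 starts with mt-, a rule that uses names only. They comprise 13 mRNAs, 2 ribosomal RNAs and 22 transfer RNAs. RNA-seq was performed on thymocytes, the T lineage cells of the thymus, from 11 young adult mice of 3 genotypes, aged 8 to 12 weeks. The 4 wt mice carried no targeted allele, the 4 Zmat3-/- mice lacked ZMAT3, an RNA-binding zinc-finger protein encoded by a TRP53 target gene, and the 3 TKO mice (Puma-/-p21-/-Zmat3-/-) lacked in addition the pro-apoptotic protein PUMA and the cell cycle inhibitor p21. All mice were on a C57BL/6-WEHI background, the alleles were germline deletions present in every tissue, each library came from 1 mouse, and no treatment was given. The labels give no sex.

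The mitochondrial genome is a small circle that is transcribed from both strands as long precursors. The tRNAs lie between most of the other genes, and their excision by mitochondrial RNases releases the rRNAs and the mRNAs. Every one of its mRNAs encodes a subunit of the respiratory chain: NADH dehydrogenase (complex I), cytochrome b (complex III), cytochrome c oxidase (complex IV) or ATP synthase (complex V). The remaining subunits, and all the proteins that copy, transcribe and translate the mitochondrial genome, are encoded in the nucleus. In thymocytes, as in most cells, mitochondrial transcripts are among the most abundant RNAs of a library. Along the evolution of the mouse a stretch of mitochondrial DNA was also inserted into nuclear chromosome 1, where GENCODE annotates its pieces as unprocessed pseudogenes.

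That insertion bears on the sum of these genes and on the values of mt-Co1, mt-Co2, mt-Co3, mt-Atp6, mt-Nd3 and mt-Nd4l, because a read inside an identical stretch belongs equally to both places. The other 9 measured genes had the same counts with the copies added as without. There were 7 annotated nuclear pieces, all on the minus strand of chr1:24611535-24616197 (GRCm38), that shared at least 50% of their 31-base words with the mitochondrial chromosome. Of these, 5 were identical to the mitochondrial gene over their whole length and 2 differed from it. The first 60 bases of mt-Co2 (chrM:7013-7072, plus strand) and of its copy Gm28661 (chr1:24615506-24615565, minus strand) are shown as an example of an identical pair, all sequences being GENCODE transcripts on GRCm38 written 5′ to 3′.
mt-Co2: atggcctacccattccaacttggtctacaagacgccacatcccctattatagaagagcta
Gm28661: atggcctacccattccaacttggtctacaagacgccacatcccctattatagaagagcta
The copy of mt-Nd3, Gm28438, differed by 1 base, T3C, counted from the first base of mt-Nd3 with the mitochondrial base first. The capitals mark that base in the first 30 bases of mt-Nd3 (chrM:9459-9488, plus strand) and of Gm28438 (chr1:24613090-24613119, minus strand).
mt-Nd3: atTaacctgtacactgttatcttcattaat
Gm28438: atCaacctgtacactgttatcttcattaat
The copy of mt-Co1, Gm29216, is a piece of 492 bases that starts at base 1054 of the 1545 bases of mt-Co1. It differed by T1056A, C1057T, A1059G, A1060G, C1062A and A1066T, in capitals, and was identical from there to its end. The 30 bases from chrM:6381-6410 (plus strand) and chr1:24616168-24616197 (minus strand) are given.
mt-Co1: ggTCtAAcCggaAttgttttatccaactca
Gm29216: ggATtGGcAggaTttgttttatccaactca
A second kind of sharing is within the mitochondrial genome itself. The end of mt-Atp8 and the start of mt-Atp6 are the same 43 bases (chrM:7927-7969, plus strand), which stand in capitals in the last 60 bases of mt-Atp8 (chrM:7910-7969), so reads there can be placed on either gene.
mt-Atp8: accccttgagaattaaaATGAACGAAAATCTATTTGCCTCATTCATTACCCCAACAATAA
mt-Nd4l and mt-Nd4 overlap by 7 bases, and mt-Nd5 and mt-Nd6 overlap by 14 bases on opposite strands. The library kit does not mark strand, so reads of mt-Nd6, the only mRNA of the minus strand, cannot be told apart from antisense transcripts of the same bases.

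The table held between 17669715 and 80207003 counts per mouse, the lowest in TKO mouse 2 and the highest in TKO mouse 3. Thymocyte markers (12 genes such as Cd3e, Cd4, Cd8a and Rag1) summed to between 13414 and 17918 CPM in all mice, whereas 5 B cell markers summed to at most 108 CPM, 5 myeloid markers to at most 265 CPM and 7 stromal markers to at most 89.7 CPM. Single thymocyte markers differed within this sum. Rag1 had 1592 and 2217 CPM in wt mice 1 and 2 and 3850 to 5635 CPM in the others. Lck went the other way, with 2023 and 1908 CPM against 1310 to 1543 CPM. The 5 erythroid markers varied most, from 870 to 8601 CPM within wt alone, and spanned 1150 to 5769 CPM in Zmat3-/- mice. Zmat3 itself had 9.80, 12.1, 26.9 and 27.0 CPM in wt mice 1 to 4. It had at most 6.94 CPM in Zmat3-/- and 8.16 CPM in TKO, below wt but not absent. Bbc3 (PUMA) was still at 12.0 to 15.9 CPM in TKO, against 16.8 to 19.9 CPM in wt. Cdkn1a (p21) was at 2.27 to 3.56 CPM in TKO, overlapping the 3.54 to 10.3 CPM of wt, so gene totals check only part of the labels. Xist was high (485 to 1515 CPM) in mice 1 and 2 of the wt group, the same numbers of Zmat3-/- and TKO mouse 1, and low (0.748 to 2.83 CPM) in the others. The wt mice stood apart from one another: over nuclear genes, mice 1 and 2 correlated at 0.982, as did mice 3 and 4, whereas pairs across these sets gave 0.894 to 0.925, below the 0.971 to 0.990 among mice of 1 mutant genotype. The main results against wt are therefore also given without each wt pair. The wt spread in those fits is that of 2 mice that are alike, so their p-values leave out the difference between the pairs. The wt mice kept are then all high or all low in Xist, against mutants of both levels.

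Mitochondrially encoded genes held 5.38%, 6.31%, 4.45% and 4.25% of all counts in wt mice 1 to 4. In Zmat3-/- mice 1 to 4 they held 10.4%, 6.54%, 14.6% and 12.0%, and in TKO mice 1 to 3 8.44%, 9.29% and 3.86%. All Zmat3-/- mice thus lay above all wt mice, by a narrow margin for Zmat3-/- mouse 2, while the TKO mice overlapped both other groups. The mean share was 5.10% ± 0.944 (SD, n = 4) in wt, 10.9% ± 3.37 (n = 4) in Zmat3-/- and 7.20% ± 2.92 (n = 3) in TKO, which gives 2.13-fold more in Zmat3-/- than in wt (log2 ratio 1.09), 1.41-fold more in TKO than in wt (0.50) and a log2 ratio of -0.60 for TKO against Zmat3-/-. No test was made of this sum over genes. In bulk RNA, more of these transcripts per cell and less nuclear RNA per cell cannot be told apart.

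**Figure D1:**
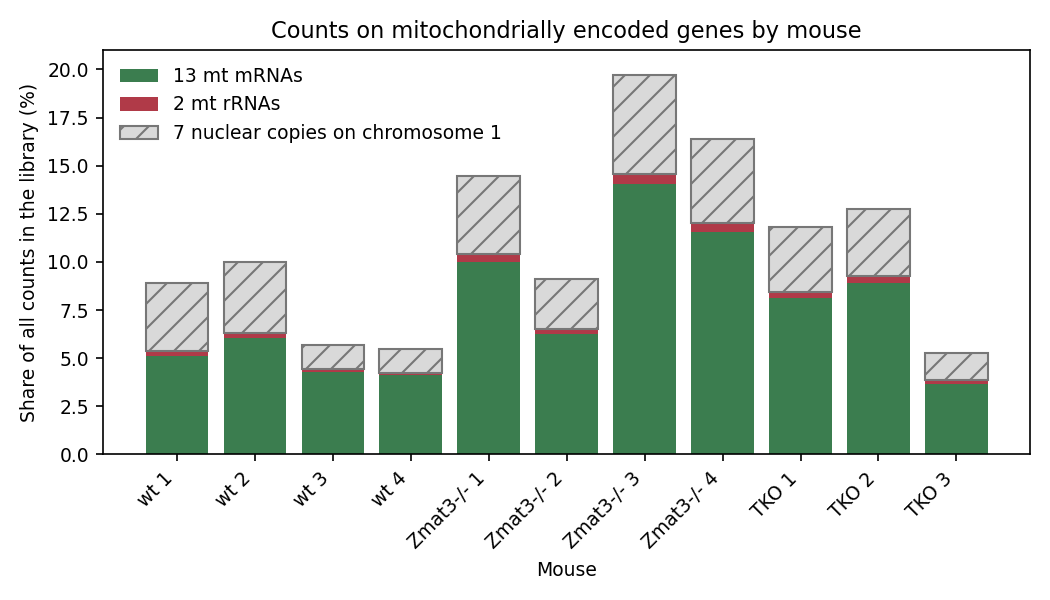
Share of all counts (%, vertical axis) in each of the 11 mice (horizontal axis), stacked as the 13 mitochondrial mRNAs, the 2 rRNAs and the 7 nuclear copies. The 4 Zmat3-/- mice reached between 6.54% and 14.6% without the copies, against 4.25% to 6.31% in wt.

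The difference from wt was not the same in all mice. Among mice with high Xist the log2 ratio of Zmat3-/- to wt was 0.54, and among mice with low Xist 1.61. The high-Xist wt mice are mice 1 and 2 and the low-Xist ones mice 3 and 4, so Xist level and wt pair cannot be told apart in wt. TKO mouse 1 lay between the 2 high-Xist Zmat3-/- mice (log2 ratio of means -0.0042), and the low-Xist TKO mice were both below the low-Xist Zmat3-/- mice (-1.02). Leaving out TKO mouse 3, the most deeply sequenced library, moved TKO against wt from 0.50 to 0.80 and TKO against Zmat3-/- from -0.60 to -0.30, and leaving out TKO mouse 2 moved TKO against wt to 0.27. Without wt mice 1 and 2 the log2 ratio of Zmat3-/- to wt was 1.32 and that of TKO to wt 0.73, and without wt mice 3 and 4 they were 0.90 and 0.30.

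The 22 tRNAs, of 59 to 75 bases, were listed at 0 in every mouse. The limit that a count of 0 allows, 3 counts, is between 3.74e-06% and 1.70e-05% of a library and covers counting error only. Nuclear genes with transcripts as short were nearly as empty: of 978 whose longest transcript had at most 75 bases, 13 had any counts, 82 counts in all. The tRNAs were therefore not measurable in these libraries, and the 15 rRNAs and mRNAs are the members described from here on. All 15 passed the low-count filter in each comparison, the lowest value being the 3242 counts of mt-Nd4l in wt mouse 1. The kit selects polyadenylated RNA, and mitochondrial rRNAs carry only short A tails, so the 0.140% to 0.548% of counts on mt-Rnr1 and mt-Rnr2 are the captured part of these RNAs and not their level in the cell.

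The nuclear copies took a further 1.20% to 5.14% of each library. Of the counts on mitochondrial genes and copies together, the copies held 39.6% and 36.8% in wt mice 1 and 2, at most 22.1% in wt mice 3 and 4, 26.1% to 28.3% in Zmat3-/- and 26.9% to 28.5% in TKO. Almost all counts of the mt-Co2 sequence were on Gm28661, between 93.6% and 99.2%, and most of those of mt-Co3 were on Gm28437, between 65.2% and 84.2%. For mt-Atp6 the copy Gm10925 held 66.1% and 71.1% in wt mice 1 and 2, 27.9% and 27.8% in wt mice 3 and 4, and 72.9% to 76.5% in the mutants. For mt-Co1 the copy Gm29216 held 24.7% and 13.9% in wt mice 1 and 2 and at most 1.54% in every other mouse. Gm10222, the copy of mt-Nd4l, held 21.8% to 61.6%, Gm28438 0.0% to 23.0% of the mt-Nd3 counts, and Gm28439, the copy of mt-Nd4, none in any mouse. For 5 of the 7 pairs the letters are identical, so the table cannot say which of the counts came from the nucleus. With the copies added to the gene they match, the share was 8.91%, 9.98%, 5.70% and 5.46% in wt, 14.5%, 9.12%, 19.7% and 16.4% in Zmat3-/- and 11.8%, 12.8% and 5.27% in TKO mice. Zmat3-/- mouse 2 then lay within the wt range, and the ratio of means was 1.99.

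Per kilobase of gene, mt-Co1, the catalytic core of complex IV, was the most abundant transcript of the deposited rows in all groups, at 11711 ± 2217 CPM per kb in wt, 28585 ± 9194 in Zmat3-/- and 19030 ± 7328 in TKO (mean ± SD). mt-Co2, which encodes the next core subunit of the same complex, had the lowest group means, at 460, 301 and 224 CPM per kb. Its last place did not hold in every wt mouse. In wt mouse 1 mt-Nd4l was lower (329 against 550 CPM per kb), and in wt mouse 3 mt-Rnr2 was (522 against 560). With the copies added mt-Co2 moved from the last place to the first in wt (15743 ± 8414 CPM per kb) and to the second in Zmat3-/- (24648 ± 7928) and TKO (16184 ± 6832). In this version mt-Co1, mt-Co2, mt-Co3 and mt-Atp6 led in every group, followed by mt-Cytb and mt-Nd1, and both rRNAs were last. In wt, mt-Co2 exceeded mt-Co1 in only 2 of 4 mice, so their order there does not hold beyond the spread between mice. In Zmat3-/- mice every neighbour in this order was separated in 4 of 4 mice, except mt-Nd3 and mt-Atp8, which exchanged places in 2. Levels were divided by annotated length, from 204 bases for mt-Atp8 to 1824 for mt-Nd5. No correction was made for fragment length, so the places of the short genes are less certain.

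**Figure D2:**
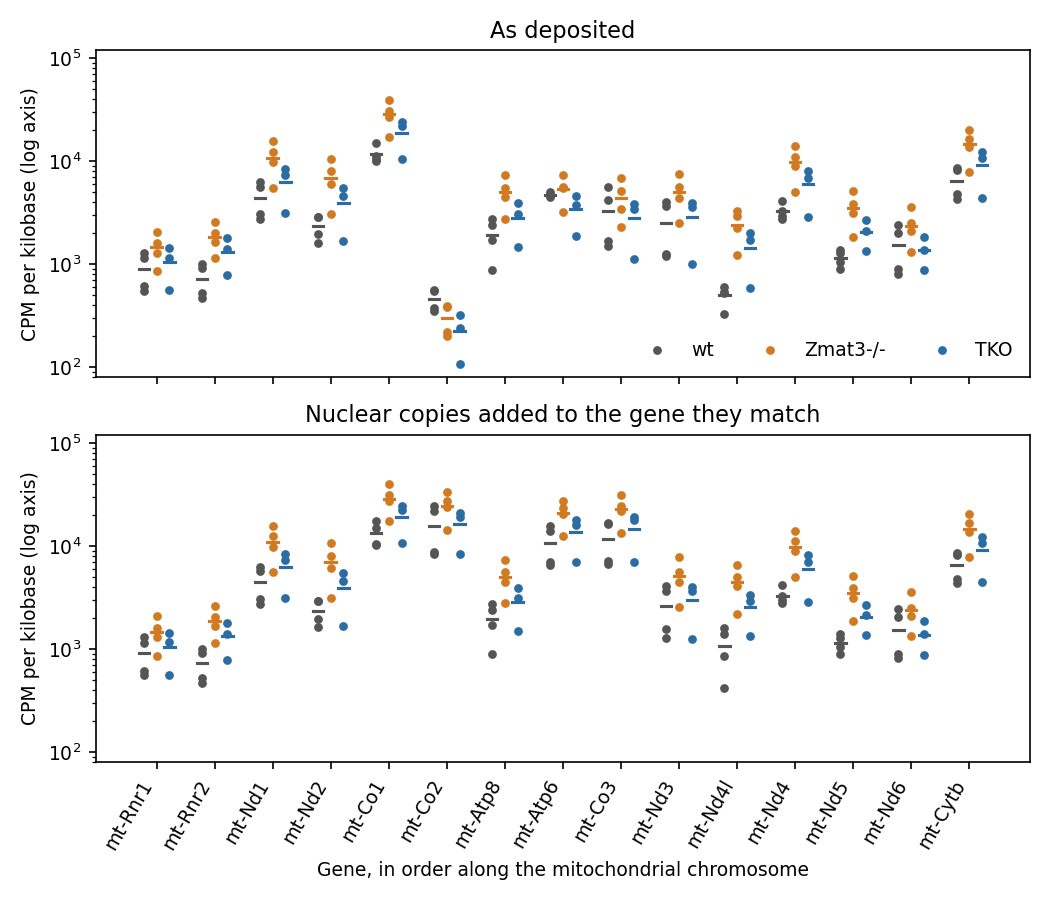
Level of the 15 measured genes in CPM per kilobase (logarithmic vertical axis) in order along the mitochondrial chromosome, as deposited (top) and with the nuclear copies added (bottom); points are mice and short lines group means. mt-Co2 stands far below its neighbours only in the top panel.

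In Zmat3-/- against wt, 14 of the 15 genes had a positive log2FC, with a median of 1.28 against -0.026 over all 13496 genes tested. By the edgeR quasi-likelihood test with Benjamini-Hochberg adjustment 1 of the 15 passed both thresholds (adjusted p under 0.05 and absolute log2FC above 1.5), where 0.319% of all genes did, and 9 had an unadjusted p under 0.05, where 16.1% of all genes did. The median was 1.46 without wt mice 1 and 2 and 0.86 without wt mice 3 and 4. That gene was mt-Nd4l (ENSMUSG00000065947, chrM:9877-10173), which encodes a small membrane subunit of complex I. It had 97.8, 156, 181 and 160 CPM in wt mice 1 to 4, 666, 365, 976 and 878 CPM in Zmat3-/- mice and 508, 595 and 176 CPM in TKO mice. The Zmat3-/- and wt mice did not overlap, and TKO mouse 3 lay in the wt range. mt-Nd4l rose with a log2FC of 2.27 (SE 0.325, adjusted p = 0.0248 by edgeR).
Its size varied less than its call. With the counts of Gm10222 added, its log2FC was 2.05 (SE 0.464) and its edgeR adjusted p 0.0921, and with the replicate number as a block it was 2.22 (SE 0.278, edgeR adjusted p = 0.0909). With each of the 8 mice left out in turn the log2FC stayed between 2.09 and 2.49, while the call was kept without wt mouse 1 or Zmat3-/- mouse 2 and lost without any of the other 6 (edgeR adjusted p 0.0124 to 0.0973). The log2FC was 2.06 without wt mice 1 and 2 (edgeR adjusted p = 0.00135), without wt mice 3 and 4 it was 2.49 (edgeR adjusted p = 0.00058), and with DESeq2 the adjusted p was 6.5e-10.

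Other complex I mRNAs were higher in Zmat3-/- mice without passing the adjusted threshold. mt-Nd5 had 1631, 1911, 2529 and 2349 CPM in wt and 5712, 3368, 9388 and 7100 CPM in Zmat3-/- mice (log2FC 1.59, SE 0.315, edgeR adjusted p = 0.0683). mt-Nd4 had 4531, 5733, 4107 and 3823 CPM against 12297, 6870, 19381 and 15305 CPM (log2FC 1.56, SE 0.316, edgeR adjusted p = 0.0705). In both genes, which encode proton-pumping subunits, every Zmat3-/- mouse was above every wt mouse. mt-Nd2 was at 1688 to 3020 CPM in wt and 3231 to 11055 CPM in Zmat3-/- (log2FC 1.56, SE 0.377), also without overlap, whereas mt-Nd1 (1.29), mt-Nd3 (0.99) and mt-Nd6 (0.62) overlapped. In the other complexes mt-Co1 (log2FC 1.28, SE 0.289) and mt-Atp8 (1.36, SE 0.398), a small ATP synthase subunit, did not overlap, and mt-Cytb (1.17, SE 0.351), the only mitochondrially encoded subunit of complex III, did. In all, 7 of 15 genes had every Zmat3-/- mouse above every wt mouse in CPM, mt-Rnr2 included, and none had every mouse below, where 7.75% of all genes lay above and 6.41% below without overlap. With copies added 6 did so, all of these except mt-Co1. For mt-Atp8 the margin was very narrow, at 563.5 CPM in Zmat3-/- mouse 2 against 563.2 CPM in wt mouse 3. As shares of the library, without TMM factors, mt-Atp8 overlapped and the counts were 6 as deposited and 5 with copies.

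The genes whose copies hold most counts had the most different values in the deposited rows. mt-Co2 had a log2FC of -0.62 (SE 0.272) in Zmat3-/- against wt as deposited and 0.64 (SE 0.422) with Gm28661 added. mt-Atp6 moved from 0.17 to 0.96 and mt-Co3 from 0.44 to 0.95. With the copies added all 15 genes were therefore positive, between 0.62 and 2.05, with a median of 1.17, and none passed the edgeR adjusted p of 0.05 (lowest 0.0681), although 11 had an unadjusted p under 0.05 (16.1% of all genes). DESeq2 called 4 of the deposited 15 at both thresholds, where it called 0.911% of all genes, and 9 at adjusted p under 0.05, where it called 8.05%. Without wt mice 1 and 2 edgeR called 7 at both thresholds (3.13% of all genes) and 13 at adjusted p under 0.05 (33% of all genes). Without wt mice 3 and 4 it called 3 (5.16% of all genes) and 7 (56% of all genes), so that a smaller share of the members than of all genes passed the adjusted p there.

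**Figure D3:**
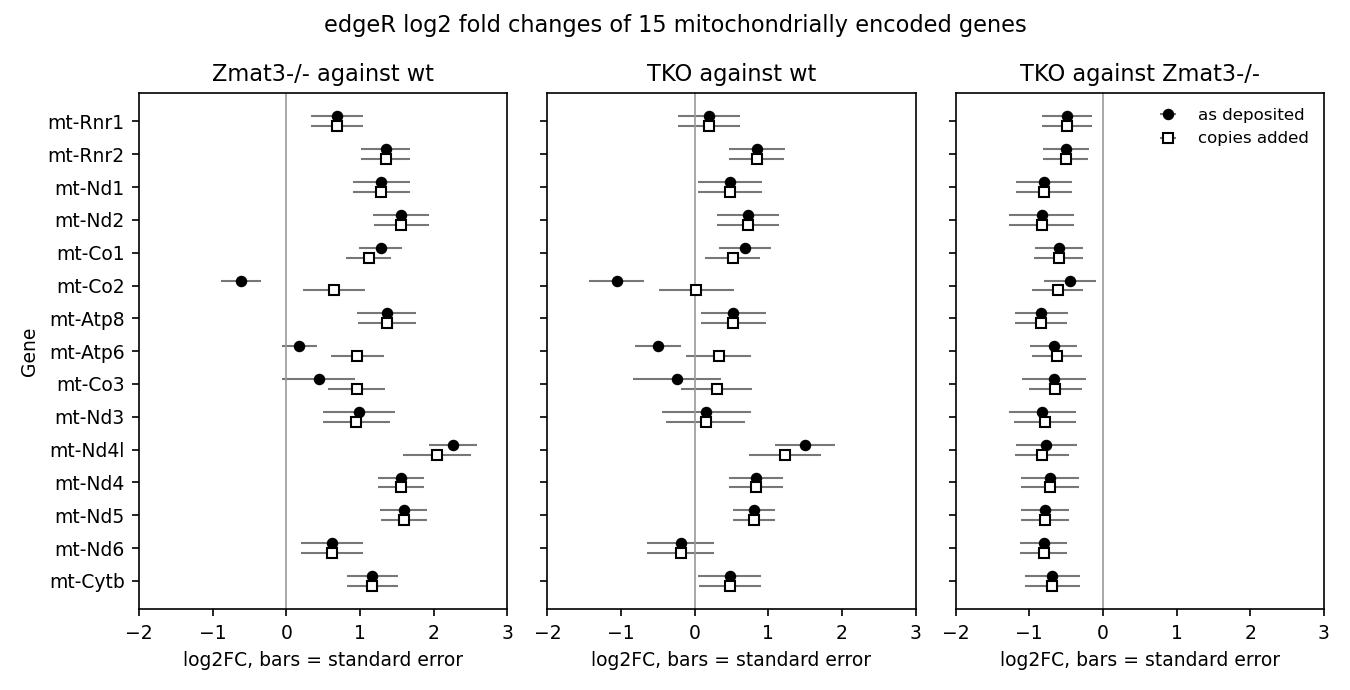
edgeR log2FC (horizontal axis) with its standard error (bars) for the 15 measured genes in the 3 comparisons, as deposited (filled circles) and with the nuclear copies added (open squares). In Zmat3-/- against wt the open squares lie between 0.62 and 2.05.

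In TKO against wt, 11 of the 15 genes were higher, with a median log2FC of 0.48 against -0.037 over all 13262 genes tested. None passed the edgeR thresholds, where 0.241% of all genes did, and 3 had an unadjusted p under 0.05, where 10.3% of all genes did. The median moved with the mice used: it was 0.21 (9 higher) without TKO mouse 2, 0.82 (13 higher) without TKO mouse 3, 0.86 (13 higher) without wt mice 1 and 2 and 0.11 (9 higher) without wt mice 3 and 4. DESeq2 called 1, where it called 0.777% of all genes. The highest was again mt-Nd4l (log2FC 1.498, SE 0.407, edgeR adjusted p = 0.307), followed by mt-Rnr2 (0.84, SE 0.378), mt-Nd4 (0.83, SE 0.369) and mt-Nd5 (0.81, SE 0.286). The log2FC of mt-Nd4l was 1.30 without wt mice 1 and 2 (edgeR adjusted p = 0.109) and 1.74 without wt mice 3 and 4 (edgeR adjusted p = 0.0157). The lower genes were mt-Co2 (-1.06, SE 0.377), mt-Atp6 (-0.50), mt-Co3 (-0.24) and mt-Nd6 (-0.19). Of these, mt-Co2, mt-Atp6 and mt-Co3 turned to 0.021, 0.33 and 0.30 with the copies added. mt-Co2 had 376, 243, 383 and 257 CPM in wt and 164, 222 and 74.0 CPM in TKO mice, the only gene of the 15 with every TKO mouse below every wt mouse in CPM, where 6.45% of all genes lay below and 7.46% above. As a share of the library mt-Atp6 did so too, and with the copies added neither did.

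TKO against Zmat3-/- mice compares the added loss of PUMA and p21. All 15 genes were lower in TKO, with log2FC between -0.84 (mt-Atp8) and -0.44 (mt-Co2) and a median of -0.72 against -0.008 over 13126 genes. None passed the edgeR thresholds, where 0.122% of all genes did, 3 had an unadjusted p under 0.05 (4.49% of all genes), and DESeq2 called 0, where it called 0.145% of all genes. The values depended on single mice: the median was -0.37 without TKO mouse 3, -0.998 without TKO mouse 2 and -0.49 without Zmat3-/- mouse 3, and mt-Co2 came to -0.09 without TKO mouse 3. All 15 stayed negative in each of these fits. All 15 genes overlapped between these groups, where 3.29% of all genes lay above and 2.41% below in TKO. TKO mouse 3 had the lowest CPM of the 3 TKO mice in each of the 15 genes.

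Within the mitochondrial genome most proportions varied less than the total. Over the 11 mice the share of the library with copies spanned 3.74-fold, and the proportions of 13 of the 15 genes spanned less, the exceptions being mt-Nd4l (6.52-fold) and mt-Atp8 (5.38-fold). With the copies added, mt-Cytb held 10.2%, 10.2%, 10.3% and 10.03% of the mitochondrial counts in wt mice 1 to 4, 10.2% to 10.97% in Zmat3-/- and 9.77% to 10.7% in TKO, although the total ranged from 5.27% to 19.7% of the library. Complex IV mRNAs held 49.3% to 56.9%, complex I mRNAs 19.3% to 27.9% and complex V mRNAs 9.24% to 11.3% in the 11 mice. As deposited, the complex V mRNAs held 6.07%, 5.56%, 9.67% and 9.67% in wt and 3.84% to 4.38% in the mutants, without overlap, whereas with the copies added wt and mutants overlapped.
The wt mice differed in composition among themselves. mt-Nd5 held 1.77% and 1.97% in wt mice 1 and 2, 4.75% and 4.74% in wt mice 3 and 4, and 3.31% to 4.77% in the mutants. mt-Nd4l held 0.136% and 0.260% in wt mice 1 and 2, 0.884% and 0.838% in wt mice 3 and 4 and 0.735% to 0.878% in the mutants. mt-Atp8 held 0.197% and 0.360%, then 1.06% and 0.991%, with 0.543% to 0.683% in the mutants. For these genes wt mice 1 and 2 were below all other mice, and mt-Co2 went the other way, with 18.0% and 15.3% in wt mice 1 and 2 and 10.3% to 11.4% elsewhere. The mice of this pair are thus unlike wt mice 3 and 4 in proportion as well as in their nuclear genes, and what this adds to the comparisons with wt was not tested further than by leaving each pair out.

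The balance of the 2 rRNAs separated wt from both mutants. mt-Rnr1 (ENSMUSG00000064337, chrM:70-1024) and mt-Rnr2 (ENSMUSG00000064339, chrM:1094-2675) encode the RNAs of the small and the large mitochondrial ribosomal subunit. Only the valine tRNA gene mt-Tv separates them, and the leucine tRNA gene mt-Tl1 follows mt-Rnr2. The tRNA genes at these borders, chrM:1025-1093 and chrM:2676-2750 on the plus strand, are printed because they mark where the rRNAs end.
mt-Tv: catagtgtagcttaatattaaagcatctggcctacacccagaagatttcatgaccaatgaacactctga
mt-Tl1: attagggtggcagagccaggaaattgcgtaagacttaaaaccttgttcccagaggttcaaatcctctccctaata
None of the 7 copies covers either rRNA gene, so adding them left this ratio unaltered. The ratio of mt-Rnr1 to mt-Rnr2 counts was 0.853, 0.691, 0.713 and 0.716 in wt mice 1 to 4. It was 0.473, 0.452, 0.481 and 0.479 in Zmat3-/- mice and 0.499, 0.483 and 0.434 in TKO mice. Every mutant mouse was below every wt mouse, and wt mice 2, 3 and 4 differed by less from one another than from any mutant. The mean log2 ratio was lower by 0.65 in Zmat3-/- than in wt, a fold of 0.636 (exact permutation test over mice, two-sided, p = 0.0286, the smallest the design allows; 0.129 after Benjamini-Hochberg adjustment over the 9 ratio tests). The same values were obtained for TKO against wt (log2 difference -0.65, exact permutation p = 0.0286, adjusted 0.129), which shares the wt mice. TKO and Zmat3-/- mice differed by -0.0008 (exact permutation p = 1). With same-numbered Zmat3-/- and wt mice as 4 pairs, all 4 pairs were lower in Zmat3-/-, and the exact permutation p was 0.125, the smallest that 4 pairs allow. Leaving out a wt pair gave differences of -0.60 and -0.70 from Zmat3-/-, with 0.0667 as the smallest p that 2 against 4 mice allow.

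**Figure D4:**
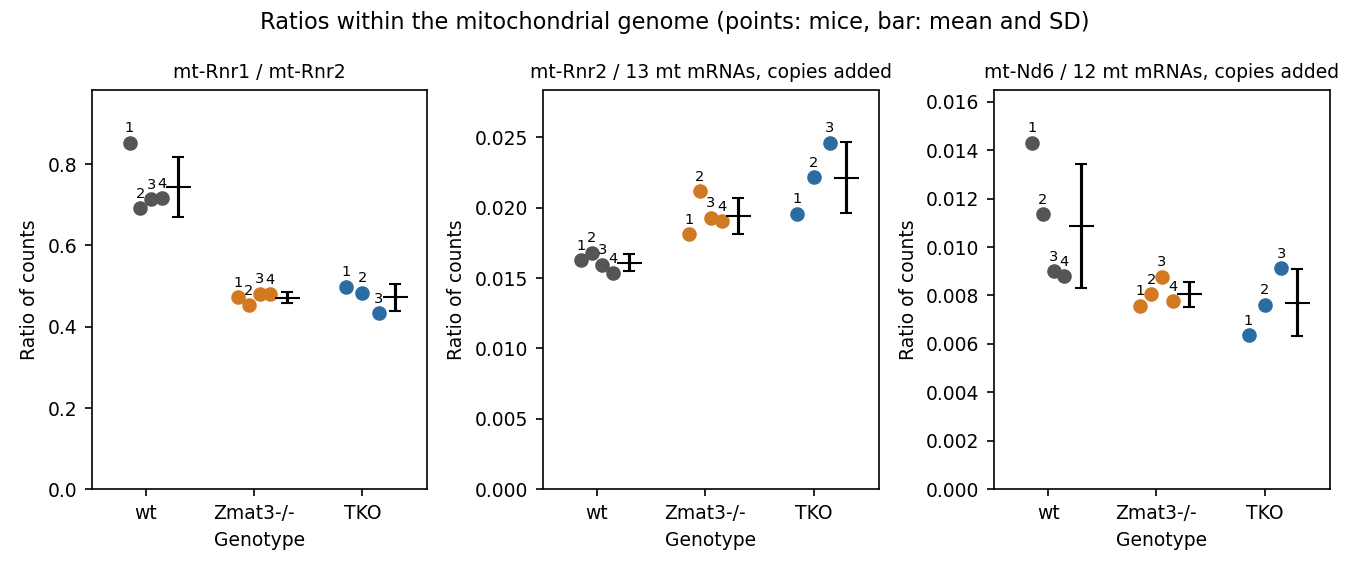
Ratios of counts (vertical axes, from 0) by genotype: mt-Rnr1 to mt-Rnr2, mt-Rnr2 to the 13 mRNAs and mt-Nd6 to the other 12 mRNAs, the last 2 with copies added. Numbered points are mice and bars the mean and SD; in the left panel wt mice lie at 0.691 and above and mutants at 0.499 and below.

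In CPM it was the large rRNA that lay further from wt. mt-Rnr2 was at 1456, 1580, 826 and 740 CPM in wt, 2612, 1819, 4122 and 3213 CPM in Zmat3-/- and 2223, 2822 and 1236 CPM in TKO mice (log2FC 1.35, SE 0.331 and 0.84, SE 0.378 against wt; edgeR adjusted p = 0.109 and 0.493). mt-Rnr1 was at 1241, 1092, 589 and 530 CPM in wt, 1235, 823, 1984 and 1541 CPM in Zmat3-/- and 1108, 1364 and 536 CPM in TKO mice (log2FC 0.69, SE 0.352 and 0.20, SE 0.416). Neither gene passed the threshold against wt, so which of the 2 accounts for the ratio was not resolved. Without wt mice 1 and 2 the log2FC in Zmat3-/- was 1.89 for mt-Rnr2 and 1.30 for mt-Rnr1 (edgeR adjusted p = 0.000766 and 0.00576), and without wt mice 3 and 4 it was 0.94 and 0.25 (edgeR adjusted p = 0.0156 and 0.478).
Relative to the 13 mRNAs with copies added, mt-Rnr2 stood at 0.0163, 0.0168, 0.0159 and 0.0153 in wt, between 0.0181 and 0.0212 in Zmat3-/- and between 0.0196 and 0.0246 in TKO mice, with no mutant as low as wt. The log2 differences were 0.27 for Zmat3-/- and 0.45 for TKO against wt (exact permutation p = 0.0286 in each, 0.0514 after Benjamini-Hochberg adjustment over the 9 ratio tests with copies). With Zmat3-/- and wt mice paired by number, all 4 pairs were higher in Zmat3-/- (exact permutation p = 0.125). As deposited they were 0.20 (exact permutation p = 0.286) and 0.39 (exact permutation p = 0.114), so this separation depended on how the copies were counted. The deposited difference of Zmat3-/- from wt also depended on wt mice 3 and 4, without which it was -0.017.
mt-Nd6, the complex I mRNA of the opposite strand, stood relative to the other 12 mRNAs, copies added, at 0.0143, 0.0114, 0.00901 and 0.00881 in wt, between 0.00758 and 0.00878 in Zmat3-/- and between 0.00636 and 0.00913 in TKO mice. The log2 difference from wt was -0.41 for Zmat3-/- (exact permutation p = 0.0286, adjusted 0.0514, and 0.125 by pairs) and -0.48 for TKO (exact permutation p = 0.171). As deposited the difference of Zmat3-/- from wt was -0.48 (exact permutation p = 0.114), and without wt mice 1 and 2 it was -0.042.

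A list of 53 nuclear genes held 44 for the copying, transcription, processing, stability and decay of mitochondrial nucleic acids and 9 regulators, mostly transcription factors and coactivators of mitochondrial biogenesis, and 52 were tested in every comparison. Of these, 21 were higher and 31 lower in Zmat3-/- than in wt (median log2FC -0.044 against -0.026 over all genes), 15 and 37 in TKO than in wt (-0.083 against -0.037), and 16 and 36 in TKO than in Zmat3-/- (-0.046 against -0.008). Without the regulators the medians of the 44 were -0.071, -0.17 and -0.058. By edgeR 1 passed the adjusted p of 0.05, in Zmat3-/- against wt, where 0.763% of all genes did. None did in TKO against wt, where 0.294% of all genes did, nor in TKO against Zmat3-/-, where 0.221% did. At an unadjusted p under 0.05, 1 rose and 7 fell in Zmat3-/- against wt, where 16.1% of all genes passed. For TKO against wt and against Zmat3-/- there were 6 and 2 of the 52, where 10.3% and 4.49% of all genes passed. At edgeR adjusted p under 0.05 in Zmat3-/- against wt, 5 rose and 4 fell without wt mice 1 and 2 (33% of all genes passed). Without wt mice 3 and 4, 6 rose and 22 fell (56% of all genes passed). The gene that passed with all mice was Mterf1a, which encodes the mitochondrial transcription termination factor known to bind within the leucine tRNA gene printed above. Mterf1a had 16.3, 15.7, 13.6 and 12.5 CPM in wt, 8.38, 8.16, 7.47 and 6.31 CPM in Zmat3-/- and 10.4, 7.46 and 7.50 CPM in TKO mice, with every mutant below every wt mouse. It fell by 0.94 on the log2 scale in Zmat3-/- (SE 0.142, edgeR adjusted p = 0.0293), and in TKO its log2FC was -0.80 (SE 0.196, edgeR adjusted p = 0.254).
Mterf1b is a close paralogue: 70.9% of its 31-base words also occur in Mterf1a transcripts, so the division of counts between them is uncertain. It had 8.84, 7.14, 5.71 and 5.32 CPM in wt, 3.49, 3.48, 3.88 and 4.75 CPM in Zmat3-/- and 4.88, 3.73 and 3.00 CPM in TKO mice (log2FC -0.80 and -0.83 against wt, SE 0.206 and 0.280; edgeR adjusted p = 0.116 and 0.410). Both together gave 25.1, 22.9, 19.3 and 17.8 CPM in wt against 11.9, 11.6, 11.4 and 11.1 CPM in Zmat3-/- and 15.3, 11.2 and 10.5 CPM in TKO mice, again without overlap. The call of Mterf1a was lost with the replicate block (log2FC -0.95, SE 0.124, edgeR adjusted p = 0.0985), without the low-count filter, and without any single mouse other than wt mouse 1 (edgeR adjusted p between 0.0538 and 0.134 without 1 of these 7 mice, and 0.0489 without wt mouse 1), while its log2FC stayed between -1.01 and -0.87. It was -0.79 without wt mice 1 and 2 and -1.09 without wt mice 3 and 4 (edgeR adjusted p = 0.00275 and 0.00027). In TKO against wt Mterf1a passed the adjusted p of 0.05 with DESeq2 (0.00976), with 1 surrogate variable (edgeR, 0.017) and without wt mice 3 and 4 (edgeR, 0.00706), but not without wt mice 1 and 2 (edgeR, 0.0799). Mterf1b in Zmat3-/- against wt likewise passed with DESeq2 (0.0068), with 1 surrogate variable (edgeR, 0.0042) and without wt mice 3 and 4 (edgeR, 0.00129), but not without wt mice 1 and 2 (edgeR, 0.0592). Mterf1b in TKO against wt passed only without wt mice 3 and 4 (edgeR, 0.0151), and had 0.232 without wt mice 1 and 2 (edgeR). Whether the level of these factors and the rRNA ratio are related was not tested.
Of the 11 transcription genes of the list, the Mterf1 pair included, 10 were lower and 1 higher in Zmat3-/- than in wt, with log2FC of -0.18 for Polrmt (the RNA polymerase), -0.12 for Tfam (which packages mitochondrial DNA and opens its promoters), 0.059 for Tfb2m (the initiation factor) and -0.46 for Tfb1m (an rRNA methyltransferase related to it). Several of these values average wt mice that lay on both sides of the mutants: Tfam had 87.9, 76.0, 58.8 and 50.4 CPM in wt and between 58.8 and 67.8 CPM in Zmat3-/- mice. When wt mice 1 and 2 were left out, the log2FC were -0.12 for Polrmt, 0.19 for Tfam, 0.093 for Tfb2m and 0.041 for Tfb1m, with 5 of the 11 higher and 6 lower. Those without wt mice 3 and 4 were -0.25, -0.39, 0.0076 and -0.84, with 1 higher and 10 lower. The next widest value was that of Myc, a transcription factor that acts on many genes of mitochondrial biogenesis, at -0.61 (SE 0.233, edgeR adjusted p = 0.249) in Zmat3-/- and -0.64 in TKO against wt. In TKO against Zmat3-/- mice the widest were Slirp (-0.39), whose product stabilises mitochondrial mRNAs, Ppargc1b (0.30), a coactivator of mitochondrial biogenesis, and 1110008L16Rik (-0.27).

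The nuclear-encoded partners of the mitochondrial mRNAs had no stable direction against wt. A list of 75 nuclear genes for complexes I to V, all subunits but the ATP synthase inhibitor Atpif1, was tested in full. Of these, 70 were lower and 5 higher in Zmat3-/- than in wt (median log2FC -0.32 against -0.026 over all genes), and 74 lower and 1 higher in TKO than in wt (-0.47 against -0.037). In TKO against Zmat3-/- mice 69 were lower (median -0.10 against -0.008). None passed the edgeR adjusted p of 0.05 in any comparison, where 0.763%, 0.294% and 0.221% of all genes did, and 1, 1 and 2 had an unadjusted p under 0.05, where 16.1%, 10.3% and 4.49% of all genes did. The direction against wt turned with the wt mice used. When wt mice 1 and 2 were left out, 73 were higher in Zmat3-/- (median 0.34, 58 at edgeR adjusted p under 0.05 where 33% of all genes were) and 70 in TKO (median 0.24, 5 at adjusted p under 0.05 where 8.11% were). Without wt mice 3 and 4 all 75 were lower in both (medians -0.80 and -0.87, 72 and 70 at adjusted p under 0.05 where 56% and 43.6% were). The widest values against wt were those of Ndufa3 (-0.69 in Zmat3-/- and -0.76 in TKO) of complex I and Cox6a1 (-0.74 and -0.75) of complex IV, followed by Ndufa8 (-0.67) in Zmat3-/- and Ndufb10 (-0.75) in TKO, both of complex I. In TKO against Zmat3-/- they were Cox7a2 (-0.35) and Cox6c (-0.29) of complex IV and Ndufa2 (-0.31) of complex I. For Cox7a2 and Cox6c only TKO mouse 3 (48.4 and 86.0 CPM) lay below every Zmat3-/- mouse (lowest 69.2 and 123 CPM). For Ndufa2 TKO mice 1 and 3 did (43.7 and 32.1 against at least 45.3 CPM).
The wt mice lay on both sides of the mutants. The 75 genes summed to 12484 and 9866 CPM in wt mice 1 and 2 and to 5555 and 5335 CPM in wt mice 3 and 4, while the Zmat3-/- (6729 to 7475 CPM) and TKO mice (6445 to 7170 CPM) lay between them. The sums of the mutants were thus close together, and the wt pairs stood above and below them. The 13 mitochondrial mRNAs with copies summed to 89463, 94135, 51792 and 48237 CPM in wt, so the same wt mice were high in both sets, and the ratio of mitochondrial to nuclear sums was 7.17, 9.54, 9.32 and 9.04. In Zmat3-/- mice this ratio was 19.3, 11.9, 30.2 and 25.1, above every wt mouse, and in TKO mice it was 16.5, 17.8 and 7.79, with TKO mouse 3 in the wt range. As deposited the ratios lay between 4.24 and 7.22 for wt, 8.42 and 22.1 for Zmat3-/- and 5.62 and 12.8 for TKO, in the same arrangement. The mean ratio of Zmat3-/- was 2.47 times that of wt with copies and 2.56 times as deposited, given without a test because it is a sum over the genes.

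**Figure D5:**
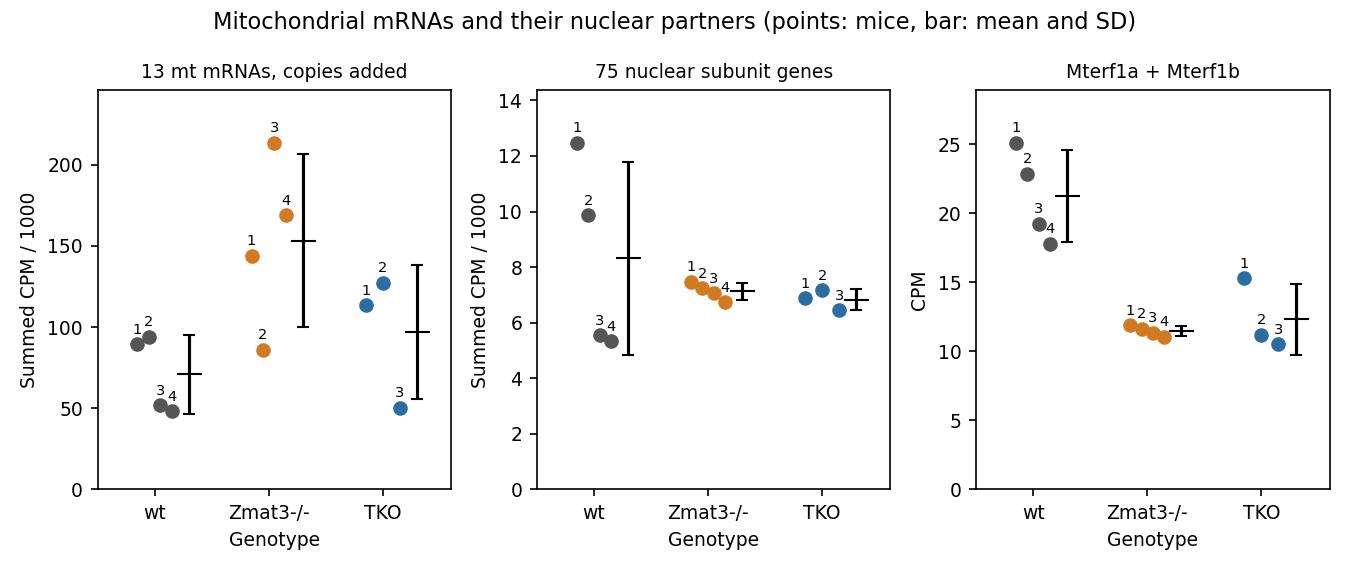
Summed CPM (scaled as the axes state) of the 13 mitochondrial mRNAs with copies (left) and of 75 nuclear respiratory chain genes (middle), and CPM of Mterf1a plus Mterf1b (right), by genotype, each axis starting at 0. Numbered points are mice and bars the mean and SD; wt mice 1 and 2 are high and 3 and 4 low in the middle panel, and all wt mice lie above all mutants on the right.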

How the data were processed

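Thymocyte RNA was prepared by the authors with the TruSeq RNA Prep Kit v2 and sequenced paired-end. The authors quantified reads with Salmon in nf-core/rnaseq (GRCm38.p6, GENCODE vM25) and deposited estimated counts per gene without normalization, 1 column per mouse. All 598598 deposited values were whole numbers. GENCODE M21 gave names and classes for 54166 of 54418 genes. Depth was 17669715 to 80207003 counts. The p-values measure the spread between the mice of each fit, which for wt is that within 1 pair when the other pair is left out.

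Genotypes were compared in pairs by edgeR 4.0.16 under R 4.3.3: TMM, quasi-likelihood F-test, two-sided, Benjamini-Hochberg over all genes. A gene was tested when it had the equivalent of 20 counts at the depth of the shallowest library in a number of mice equal to the smaller group. Following the study, Xist, Y-linked, rRNA and immunoglobulin pseudogene rows were removed, except that the mitochondrial rRNAs were kept here and no filter on obsolete gene IDs was applied. The thresholds were those of the study, which used DESeq2 and adjusted for sex and surrogate variables. Log2FC is that of edgeR, and its SE is the absolute log2FC over the root of F. CPM uses TMM factors over 11 mice. Copies are nuclear genes sharing at least 50% of their 31-base words with the mitochondrial chromosome. Ratios were tested by exact permutation. The fit was tested on simulated data. DESeq2 1.42.0, sva 3.50.0, other scalings and filters, the copies and left-out mice were alternatives; leaving out wt pairs was chosen after seeing the data. Replicate numbers come from the titles, with nothing in the labels to link mice. Same-numbered mice deviated together in Zmat3-/- against wt (correlations 0.127 to 0.340), and their block is given there. Differently numbered mice within the sets 1 and 2 or 3 and 4 did so as well (0.159 to 0.380). Across these sets the correlations were negative. The replicate number therefore cannot be told apart from these sets as what links the mice. Same-numbered mice gave 0.073 to 0.405 in TKO against wt and 0.012 to 0.196 in TKO against Zmat3-/-.

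Members and gene lists were chosen with earlier results of these data known. The text names all 15 measured members, the copies, and of each nuclear list those at adjusted p under 0.05 and the 3 with the largest change per comparison, besides core factors named after their values were seen.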

Additional observations from a re-analysis of the deposited data

Results flagged for a closer look

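Of 186 groups of 4 mice examined for a single value far from the others, 3 stood out, and chance alone gives about 1 in 20. Gm28438 held 23.0% of the counts of mt-Nd3 and its copy in wt mouse 3, against at most 0.737% in the other wt mice, and 2.52% in Zmat3-/- mouse 3, against at most 0.159% in the other Zmat3-/- mice. TKO mouse 3 had 19.9%, against at most 1.20% in the other TKO mice. The ratio of mt-Rnr1 to mt-Rnr2 was 0.853 in wt mouse 1, above the 0.691 to 0.716 of the other wt mice, and without wt mouse 1 every wt mouse was still above every mutant.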

How the results depend on the processing

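In Zmat3-/- against wt the call of mt-Nd4l kept its side of both thresholds with RLE factors, total counts, no low-count filter and no gene class left out. The number of members past both thresholds, 1 with the main settings, was 4 with DESeq2, 5 with 1 surrogate variable, 2 with Xist level as covariate, 2 with all 3 genotypes in one fit, 0 with nuclear copies added, 7 without wt mice 1 and 2 and 3 without wt mice 3 and 4, where 0.911%, 1.6%, 0.393%, 0.533%, 0.311%, 3.13% and 5.16% of all genes passed. At adjusted p under 0.05 alone these were 9, 13, 2, 2, 0, 13 and 7, where 8.05%, 37.7%, 1.22%, 1.74%, 0.749%, 33% and 56% of all genes passed. Leaving out 1 mouse gave 0 to 1 by either rule, where 0.0874% to 0.343% of all genes passed both thresholds and 0.124% to 0.766% the adjusted p. In TKO against wt, 0 with the main settings, DESeq2 gave 1 past both thresholds (0.777% of all genes) and 1 at adjusted p under 0.05 (2.87%), 1 surrogate variable gave 3 at adjusted p under 0.05 (14%), leaving out wt mice 1 and 2 gave 1 (8.11%), and leaving out wt mice 3 and 4 gave 1 past both thresholds (5.03%) and 2 at adjusted p under 0.05 (43.6%). In TKO against Zmat3-/- every alternative gave 0, where 0.107% to 0.154% of all genes passed both thresholds and 0.122% to 0.556% the adjusted p.

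The block on the replicate number, with pairing as in the methods, left 0 members past either rule in Zmat3-/- against wt. There 0.0593% of all genes passed both thresholds and 0.0889% the adjusted p. The block gave a log2 difference of -0.65 in the ratio of mt-Rnr1 to mt-Rnr2 (exact p = 0.125, the smallest for 4 pairs). In the TKO comparisons, where nothing in the labels links the numbers either, the block gave -0.67 for this ratio against wt (exact p = 0.25) and 0.0075 against Zmat3-/-. The log2FC against wt with this block were -0.016 for mt-Rnr1 and -0.12 for mt-Nd3.

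Directions that turned in TKO against wt were those of mt-Co2 (0.021), mt-Atp6 (0.33) and mt-Co3 (0.30) with copies, mt-Co3 (0.22) and mt-Nd6 (0.19) with 1 surrogate variable, mt-Co3 (0.14) and mt-Nd6 (0.11) with Xist level, mt-Co3 (0.79) and mt-Nd6 (0.66) without wt mice 1 and 2, and mt-Rnr1 (-0.23) and mt-Nd3 (-0.44) without wt mice 3 and 4. In Zmat3-/- against wt they were mt-Co2 with copies (0.64) and, without wt mice 3 and 4, mt-Co3 (-0.17) and the ratio of mt-Rnr2 to mRNAs (-0.017). Leaving out 1 mouse gave -0.0081 to 0.36 for mt-Atp6 in Zmat3-/- against wt, and in TKO against wt -0.54 to 0.17 for mt-Co3, -0.15 to 0.58 for mt-Nd3, -0.47 to 0.12 for mt-Nd6 and -0.089 to 0.51 for mt-Rnr1. In TKO against Zmat3-/- it gave -0.19 to 0.052 for the ratio of mt-Nd6 to mRNAs and -0.042 to 0.059 for mt-Rnr1 to mt-Rnr2. The latter ratio was -0.69 to -0.59 in TKO against wt, where no such design can reach 0.05, and -0.69 to -0.58 in Zmat3-/- against wt, at an exact permutation p of 0.0286 throughout. Without wt mice 1 and 2 or 3 and 4 it was -0.60 or -0.70 in both comparisons (exact p = 0.0667 for Zmat3-/- and 0.1 for TKO, the smallest possible). With copies the ratio of mt-Rnr2 to mRNAs was 0.27 and 0.45 and that of mt-Nd6 -0.41. The share of counts moved beyond the spread between mice only by Xist level (0.54 and 1.61 for Zmat3-/- against wt, -0.0042 for TKO against Zmat3-/- mice with high Xist). In wt the Xist split is also that of the wt pairs. Of the single-gene values 822 kept direction and side of the threshold, 54 passed it newly, 17 lost it and 25 turned. The causes were not tested.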
